A study of Mus musculus with 6 samples.

Results

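Heat shock proteins and the J-domain (DnaJ) proteins that drive their ATPase cycle were read in renal juxtaglomerular (JG) cells and in renal mesenchymal stromal cells (MSC) of the mouse. The genes were chosen by symbol, as those that begin with Hspa, Hspb, Hspd, Hspe, Hsph or Hsp90, or with Dnaja, Dnajb or Dnajc and a digit. This gave 72 genes of the 18193 with a probe set paired to 1 gene, and each was represented by the probe set with the highest mean intensity over all arrays. The 3 JG samples hold YFP-positive cells sorted from adult C57BL6 mice carrying a Ren1c YFP reporter. The 3 MSC samples come from the same Ren1c YFP strain, were sorted by the surface antigen CD44 and were grown to confluence in DMEM with 10% serum. The labels repeat that medium for the JG samples, so whether JG cells were cultured is not clear from them. They also do not say whether samples of a group are separate animals, so the p-values measure the spread between these samples, which may be technical. Hsp90ab1 and Dnajc19 have no probe set paired to them alone and were not analysed with the others.

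Heat shock proteins are chaperones that bind unfolded stretches of other proteins and release them through cycles of ATP hydrolysis. J-proteins deliver substrates to Hsp70 and start its ATP hydrolysis, nucleotide exchange factors such as the Hsp110 proteins reset it, and Hsp90 takes over later folding steps. Small heat shock proteins hold unfolded proteins without ATP, and in muscle and mesenchymal cells several of them bind the actin cytoskeleton. Hspa5 and Hsp90b1 serve the endoplasmic reticulum (ER), and Hspa9, Hspd1 and Hspe1 the mitochondrial matrix. Heat shock factor 1 switches on the cytosolic set through heat shock elements, and ER stress switches on the ER set through a different promoter element.

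Promoter windows were searched for the letters of both elements, and windows of members whose values follow are printed to show where they stand. RefSeq windows of GRCm38.p6, which reach from 250 bases before to 50 bases after a transcript start, were found for 59 of the 72 members. The heat shock element was searched as GAA, 2 bases of any kind, TTC, 2 bases of any kind and G. A stricter form, which contains it, ends in GAA in place of G. The ER stress response element was searched as CCAAT, 9 bases of any kind and CCACG. Both strands were read, and since the heat shock element is nearly its own reverse complement, matches on the 2 strands can overlap. The shorter heat shock element lay in the windows of 13 members (22% of the 59, against 4.56% of all 27025 genes with a window) and the stricter one in those of 4 members, Hspd1, Hspe1, Dnajb6 and Hsph1 (6.78% against 0.662%). The ER stress response element lay in those of Hspa5, Hsp90b1 and Dnajc3 (5.08% against 0.137%). A match describes the letters of the window and does not show that a factor binds there. The following lines give the 130 bases before the start, 5′ to 3′ on the gene's own strand, with the matched element in capitals. They stand at chr17:34972157-34972286 (minus strand) for Hspa1a, chr17:34959239-34959368 (minus) for Hspa1b, chr5:135887789-135887918 (plus) for Hspb1, chr1:55088018-55088147 (plus) for Hspe1, chr2:34771960-34772089 (plus) for Hspa5, chr10:86705445-86705574 (minus) for Hsp90b1 and chr14:118937802-118937931 (plus) for Dnajc3. The first 3 hold the shorter heat shock element, Hspe1 holds the stricter one in 2 overlapping copies, and the last 3 hold the ER element.
Hspa1a: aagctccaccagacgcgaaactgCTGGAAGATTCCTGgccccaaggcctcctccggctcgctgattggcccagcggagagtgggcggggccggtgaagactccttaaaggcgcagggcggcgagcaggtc
Hspa1b: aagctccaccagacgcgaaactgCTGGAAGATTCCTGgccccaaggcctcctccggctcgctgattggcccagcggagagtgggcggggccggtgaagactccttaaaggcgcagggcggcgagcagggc
Hspb1: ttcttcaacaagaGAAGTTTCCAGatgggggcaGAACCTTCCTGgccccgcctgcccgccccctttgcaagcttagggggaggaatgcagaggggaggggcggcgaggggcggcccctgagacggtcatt
Hspe1: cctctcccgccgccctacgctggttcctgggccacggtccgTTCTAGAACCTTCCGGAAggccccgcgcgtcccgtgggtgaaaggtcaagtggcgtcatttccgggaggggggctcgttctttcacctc
Hspa5: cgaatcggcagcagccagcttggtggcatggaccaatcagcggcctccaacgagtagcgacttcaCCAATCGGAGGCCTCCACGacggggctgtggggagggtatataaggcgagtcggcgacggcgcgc
Hsp90b1: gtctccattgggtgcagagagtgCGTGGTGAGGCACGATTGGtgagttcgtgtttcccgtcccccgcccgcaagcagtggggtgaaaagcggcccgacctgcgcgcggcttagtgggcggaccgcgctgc
Dnajc3: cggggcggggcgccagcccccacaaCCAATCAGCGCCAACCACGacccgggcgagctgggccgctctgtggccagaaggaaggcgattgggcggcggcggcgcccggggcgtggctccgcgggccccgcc
Hspa1a and Hspa1b, a near-identical gene pair, matched in 129 of the 130 printed bases and in 296 of the 300 bases of the whole window. The copies in Hspe1 lie at the same coordinates as those in the window of Hspd1, since both genes are read outward from 1 shared promoter. Of the 12 members that passed the test below, 9 had a window, and 2 of these, Hspa1a and Hspb1, held the shorter heat shock element. Of the 60 members not called, 50 had a window and 11 of these held it. Hspa1a and Hspb1 differed between the groups in opposite directions.

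Each difference below is given as JG minus MSC with its SE (n = 3 samples a group), after 16 was added to the intensity and the log2 taken. A gene is called at a limma adjusted p under 0.05, with Benjamini-Hochberg adjustment over all 18193 genes. Of the 72 members, 6 were called higher in JG and 6 lower, which is 8.33% in each direction. Among all genes 15.4% were called, 7.7% higher and 7.71% lower, so the members were called about as often as genes at large. Every JG sample lay above every MSC sample for 11 members (15.3%, against 20.2% of all genes) and below every MSC sample for 17 (23.6%, against 18.7%). Either held for 38.9% of all genes, and the groups overlapped for 44 members. The median log2 difference of the members was -0.19, and that of all genes 0.07. The plot of all members by role shows both directions within most classes.

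**Figure D1:**
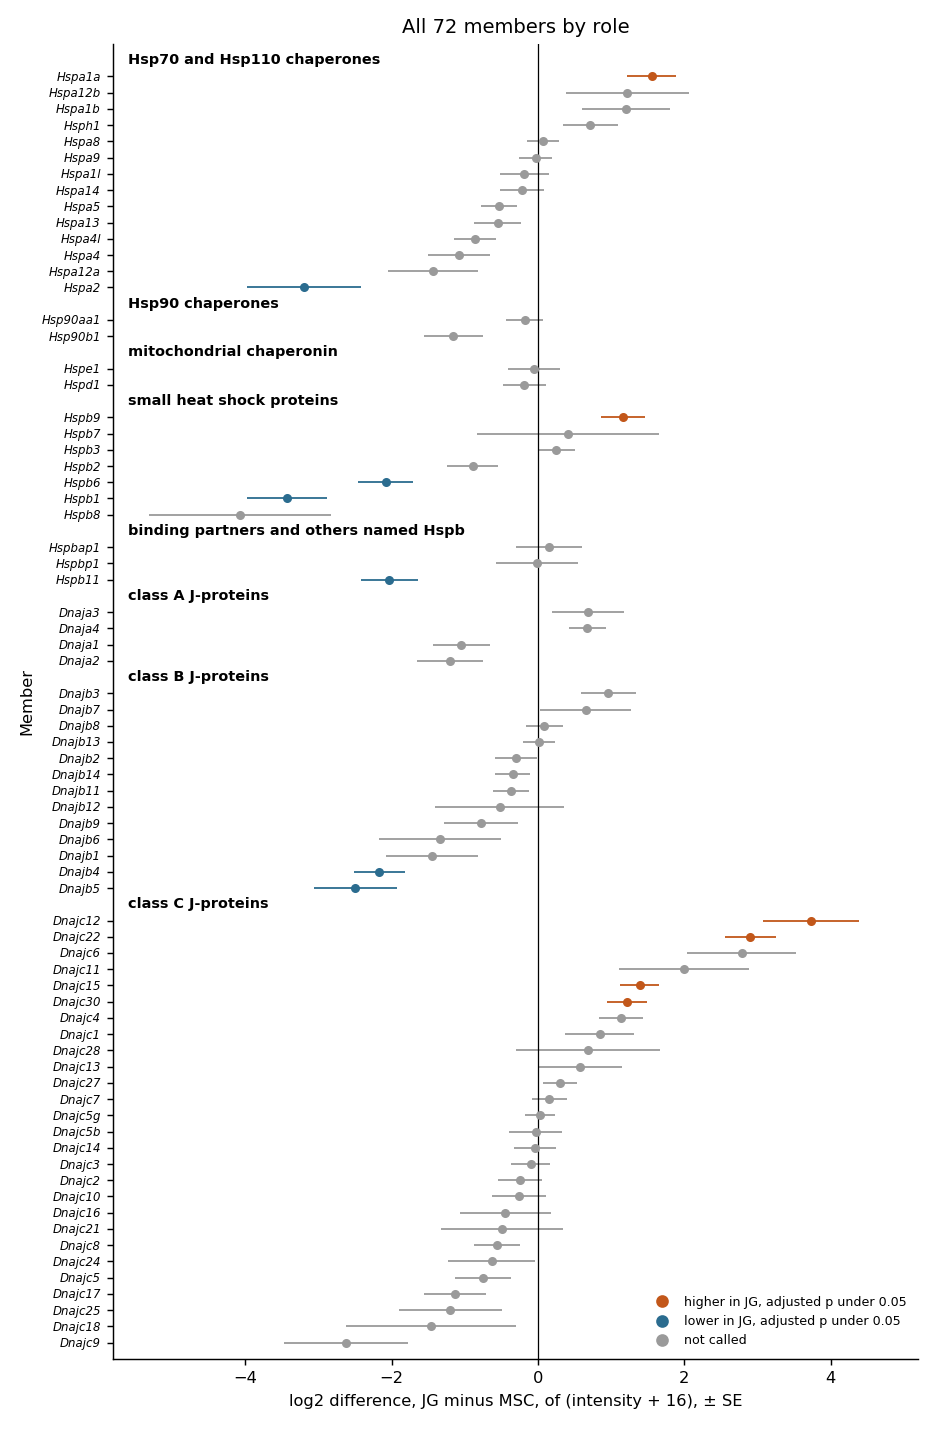
Log2 difference, JG minus MSC, of the intensity plus 16 (x axis, with SE bars) for each of the 72 members, grouped by role (y axis). Orange marks the 6 members called higher in JG, blue the 6 called lower and grey the others. 4 of the 6 orange points are class C J-proteins, and the grey point furthest left is Hspb8 at -4.07.

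The arrays differ in ways that touch every result below. Array medians ran from 27.4 to 36.5 in JG and from 27.3 to 34.1 in MSC, and the arrays correlated over all genes at 0.797 to 0.882 within JG and at 0.971 to 0.975 within MSC. JG sample 1 stood nearest to MSC, at 0.802 to 0.812. In the proximal tubule list 17 of 18 genes passed the test upward, and their summed intensity was 39360 to 52760 in JG and 467 to 763 in MSC. Of 12 markers of the loop and distal tubule 11 were called higher, with sums of 14620 to 22800 and 59.8 to 108. Endothelial markers had 6 of 11 called higher (1188 to 1485 in JG, 195 to 216 in MSC), and leukocyte markers 4 of 12 (1651 to 4096 and 124 to 545). Dividing-cell markers had 9 of 11 called lower in JG (452 to 777 and 2883 to 4214). The sort antigen gene Cd44 was called lower in JG (153, 119 and 144, against 1005, 1035 and 881 in MSC). Among renin cell markers 5 of 9 were called higher in JG, including Rgs5 and Rgs2, and 1 lower, while Ren1 itself was not analysed here. In bulk RNA, fewer cells of a type and less RNA per cell cannot be told apart, and the part of these other cells in the results was not tested.

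The Hsp70 genes with the brightest probe sets were not called. Hspa8, the constitutive cytosolic Hsp70 that also uncoats clathrin vesicles, read 9490, 8019 and 9631 in JG samples 1 to 3 and 8891, 8953 and 7867 in MSC samples 1 to 3 (0.08 ± 0.22, adjusted p = 0.845). Hspa9, the mitochondrial Hsp70, read 3993, 4149 and 3373 in JG and 3852, 3583 and 4324 in MSC (-0.03 ± 0.22, adjusted p = 0.937). For both genes the groups overlapped. Hspa5 (BiP), the Hsp70 of the ER, read 2538, 3292 and 2102 in JG and 3761, 3661 and 3867 in MSC, without a call (-0.53 ± 0.25, adjusted p = 0.203). Every JG sample lay below every MSC sample. By another bright probe set of Hspa5 the groups overlapped, at 2269, 3762 and 2325 in JG and 4016, 3498 and 3169 in MSC (-0.39).

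Of the 14 Hsp70 and Hsp110 genes, Hspa1a was called higher in JG and Hspa2 lower. Hspa1a, a stress-inducible Hsp70, read 239, 137 and 107 in JG and 36.9, 37.3 and 50.7 in MSC, so that the lowest JG sample exceeded the highest MSC sample (1.56 ± 0.33, adjusted p = 0.0274). Its near-identical partner Hspa1b read 306, 1016 and 1473 in JG and 270, 476 and 270.0 in MSC, without a call (1.21 ± 0.60, adjusted p = 0.224). JG sample 1 was the highest of the JG samples for the Hspa1a probe set and the lowest for that of Hspa1b. How far each probe set reads the other gene of the pair was not tested. Hspa2, an Hsp70 needed for sperm formation, read 379, 26.0 and 112 in JG and 912, 1211 and 1409 in MSC (-3.19 ± 0.78, adjusted p = 0.0414). Its 3 JG samples spread widely, and the highest of them still lay under the lowest MSC sample. Without any 1 MSC sample neither gene was called (adjusted p from 0.0851 to 0.111 for Hspa1a and from 0.113 to 0.149 for Hspa2), and Hspa2 also lost its call without JG sample 3 (0.104). A trended and robust prior ended the call of Hspa1a (0.0542).

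The Hsp110 proteins, nucleotide exchange factors of Hsp70, did not pass the test. Hspa4 read 3278, 1074 and 2108 in JG and 4347, 4103 and 3982 in MSC (-1.08 ± 0.42, adjusted p = 0.138). Hspa4l read 543, 417 and 380 in JG and 1002, 619 and 877 in MSC (-0.86 ± 0.28, adjusted p = 0.0935). Every JG sample lay below every MSC sample for these 2 genes. Hsph1, the heat-inducible Hsp110, read 2092, 3372 and 1981 in JG and 2274, 1218 and 1127 in MSC, and the groups overlapped (0.71 ± 0.38, adjusted p = 0.246). Of the more distant relatives, Hspa12a stood at -1.43 and Hspa12b, known from endothelium, at 1.22, neither called. Hspa12b read 848 in JG sample 1, against 94.7 and 124 in the other JG samples and 46.6 to 161 in MSC. Hspa13, Hspa14 and Hspa1l had differences from -0.55 to -0.19 and were not called.

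Neither of the 2 measured Hsp90 genes was called by limma, and 1 of them had an unadjusted p under 0.05. Hsp90aa1, the inducible cytosolic Hsp90, read 3651, 3351 and 4681 in JG and 5181, 4301 and 3750 in MSC (-0.18 ± 0.26, adjusted p = 0.667). Hsp90b1 (Grp94), the Hsp90 of the ER, read 4147, 1438 and 2537 in JG and 5906, 5537 and 5159 in MSC, without overlap (-1.15 ± 0.40, adjusted p = 0.108). By its other, similarly bright probe set the groups overlapped, at 4089, 3232 and 3402 in JG and 5848, 3961 and 3720 in MSC (-0.31). The mitochondrial chaperonin pair of the shared promoter printed above gave overlapping groups for both genes. Hspd1 (Hsp60) read 4073, 2474 and 2578 in JG and 3191, 2998 and 3987 in MSC (-0.18 ± 0.29, adjusted p = 0.702). Its lid Hspe1 (Hsp10) read 4616, 2355 and 2930 in JG and 2558, 3210 and 4351 in MSC (-0.05 ± 0.35, adjusted p = 0.930). In JG, sample 1 was the highest for both genes of the pair.

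Among the small heat shock proteins, Hspb1 and Hspb6 were lower in JG. Hspb1 (Hsp27), an actin-binding chaperone of stressed and contractile cells, read 370, 83.1 and 138 in JG and 1341, 2608 and 2029 in MSC (-3.42 ± 0.55, adjusted p = 0.0104). Its second probe set gave the same call (-3.72, adjusted p = 0.00373 over all probe sets). Hspb6 (Hsp20), which is abundant in smooth muscle, read 166, 55.8 and 85.7 in JG and 390.3, 481 and 481 in MSC (-2.08 ± 0.38, adjusted p = 0.0161). The groups did not overlap for either gene. Of smooth muscle and mural cell markers, 3 of 12 were called higher in JG and 4 lower, with sums of 3952 to 5052 in JG and 21310 to 28690 in MSC. Tagln had the largest log2 difference among the 4 (125, 159 and 83.3 in JG, 4918, 6825 and 5893 in MSC). The 3 called higher were Rgs5 (3.79), Myh11 (2.64) and Pln (1.77), and Myh11 read 1003, 718 and 524 in JG and 98.4, 227 and 44.5 in MSC. The part of smooth muscle cells in the Hspb1 and Hspb6 values was not tested. Hspb1 lost its call without MSC sample 2 or 3 (adjusted p = 0.0539 and 0.0534), and Hspb6 without any 1 MSC sample (0.0600 to 0.0763) or JG sample 3 (0.0540).

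Hspb8, which works with the co-chaperone Bag3 to send misfolded proteins to autophagy, had the most negative difference of all members and was not called. It read 1374, 21.4 and 94.4 in JG and 3459, 2868 and 2685 in MSC (-4.07 ± 1.24, adjusted p = 0.0773). JG sample 1 lay far above the other JG samples and still below every MSC sample. A second probe set read 68.7, 12.02 and 25.5 in JG and 563, 595 and 462 in MSC and was called lower (-3.58, adjusted p = 0.00479 over all probe sets). The third, at 59.2, 14.5 and 10.8 in JG and 206, 227 and 200.2 in MSC, was called lower too (-2.53, adjusted p = 0.0147 over all probe sets). The brightest probe set was called lower without JG sample 1 (adjusted p = 0.00194), and also with either filter on dim genes (0.0395 and 0.0387), the mean of all probe sets (0.0176), a trended and robust prior (0.0424) or array weights (0.00249). Bag3 itself read 181, 13.8 and 9.86 in JG and 263, 282 and 341 in MSC, with JG sample 1 again the highest of its group, but no call (-2.54 ± 0.78, adjusted p = 0.0782).

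Of the remaining small heat shock proteins and Hspb-named genes, Hspb9 was called higher in JG and Hspb11 lower. Hspb9, known from testis, read 13.8, 40.2 and 28.3 in JG and 2.78, 4.14 and 1.55 in MSC (1.16 ± 0.30, adjusted p = 0.0467). These values lie near the added 16, and the call was lost without any 1 MSC sample (0.136 to 0.168), without JG sample 2 (0.0698) or without JG sample 3 (0.111). Quantile normalization (0.0726), median centring (0.0551) and a pseudocount of 64 (0.0908) also ended it. Hspb11 (Ift25), a subunit of the intraflagellar transport machinery of cilia and not a chaperone of the usual kind, read 183, 145 and 69.5 in JG and 420, 568 and 716 in MSC (-2.03 ± 0.39, adjusted p = 0.0197). A second probe set of Hspb11 stayed between 4.69 and 31.3 on all arrays and was not called (0.77). The Hspb11 call was lost without any 1 MSC sample (0.0535 to 0.0896) and with the mean of its probe sets (0.0973). Hspb2 stood at -0.89 without overlap, while Hspb3 and Hspb7, and the Hsp70 exchange factor Hspbp1 and Hspbap1, had differences from -0.01 to 0.41. Hspb7 read 426 in JG sample 2 and 5.24 and 9.52 in the other JG samples.

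**Figure D2:**
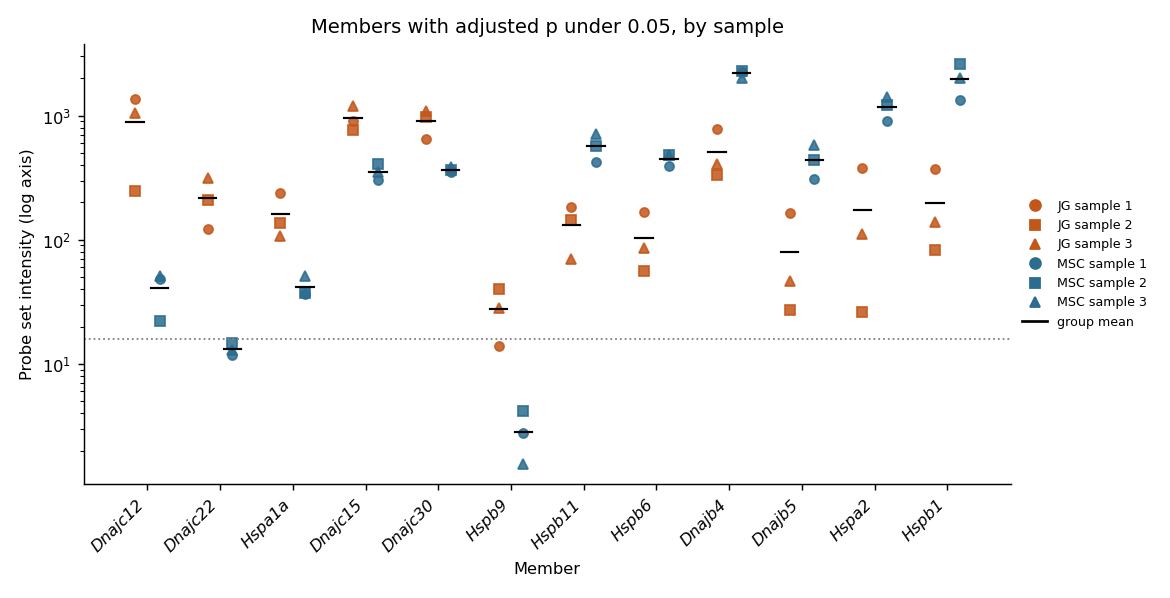
Probe set intensity (y axis, log scale) of the 12 called members (x axis), with JG samples in orange left of MSC samples in blue. Marker shapes give the sample number, black lines the group means and the dotted line an intensity of 16. JG and MSC samples do not overlap for any of the 12, and JG sample 1 is the highest JG sample for the 6 members on the right.

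J-proteins of classes A and B carry the domains of the classic bacterial DnaJ in full or in part, and they are the general partners of cytosolic Hsp70. None of the 4 class A genes was called by limma (1 had an unadjusted p under 0.05 upward and 2 downward). Dnaja1 read 3164, 1251 and 2040 in JG and 4511, 3244 and 4930 in MSC (-1.05 ± 0.39, adjusted p = 0.126). Dnaja2 read 1787, 551 and 1113 in JG and 2323, 2048 and 2891 in MSC (-1.20 ± 0.45, adjusted p = 0.125). Both had every JG sample below every MSC sample. The mitochondrial Dnaja3 (0.68, overlapping) and the heat-inducible Dnaja4 (0.68, every JG sample above) had positive differences by their brightest probe sets. Other probe sets of Dnaja4 went the opposite way without a call. One read 35.6, 5.45 and 17.8 in JG and 58.1, 66.3 and 58.3 in MSC (-1.20, every JG sample below), and another stood at -0.80.

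Of 13 class B genes, Dnajb4 and Dnajb5 were called lower in JG and none higher by limma (1 had an unadjusted p under 0.05 upward). Dnajb4 read 783, 335 and 407 in JG and 2265, 2300 and 2013 in MSC (-2.16 ± 0.35, adjusted p = 0.0110), and 1 of its 2 other probe sets was called the same way (-1.93). Dnajb5, its close relative, read 164, 27.2 and 46.2 in JG and 306, 435 and 581 in MSC (-2.50 ± 0.57, adjusted p = 0.0334), also with 1 of 2 other probe sets in the same direction (-2.40). The 3 MSC samples stood close together for Dnajb4, and JG sample 1 was the highest JG sample for both. Dnajb4 lost its call without any 1 MSC sample (0.0516 to 0.0577). Dnajb5 lost it in the same cases (0.0821 to 0.132) and without JG sample 2 (0.0598) or JG sample 3 (0.0963).

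Dnajb1 (Hsp40), the heat-inducible partner of Hspa8 and Hspa1a, turned on a single sample. It read 2743, 444 and 969 in JG and 2644, 2755 and 3409 in MSC, so that JG sample 1 lay within the MSC range and the other JG samples far below it (-1.45 ± 0.63, adjusted p = 0.175). Without JG sample 1 it was called lower (adjusted p = 0.0139). By the other, dimmer probe set of Dnajb1 the groups overlapped, at 165, 111 and 104 in JG and 74.7, 92.9 and 122 in MSC (0.34, not called). Dnajb6, which keeps polyglutamine proteins from aggregating, read 2812, 237 and 1090 in JG and 2029, 2214 and 2756 in MSC, with JG sample 1 above the MSC samples (-1.33 ± 0.83, adjusted p = 0.321). The lumenal ER partners of Hspa5 in this class, Dnajb9 (-0.77) and Dnajb11 (-0.37), were not called. The same held for the ER membrane proteins Dnajb12 (-0.52) and Dnajb14 (-0.35), whose J domain faces the cytosol, and for the neuronal Dnajb2 (-0.30). Dnajb3, Dnajb7, Dnajb8 and Dnajb13 stayed at or under 63.5 on all arrays.

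Class C J-proteins share only the J domain and recruit Hsp70 to special tasks, from vesicle uncoating to mitochondrial import. Of 27 measured, 4 were called higher in JG and none lower by limma (2 had an unadjusted p under 0.05 downward). Among all genes 7.7% were called higher and 7.71% lower. Dnajc12, which in humans assists phenylalanine hydroxylase and related enzymes, had the most positive difference of all members. It read 1358, 246 and 1053 in JG and 48.6, 22.2 and 51.1 in MSC (3.73 ± 0.66, adjusted p = 0.0143). The lowest JG sample, sample 2, was several times the highest MSC sample. The JG samples had this order, sample 1 above 3 above 2, for 9 of the 18 proximal tubule markers, and JG sample 1 was the lowest for 3 of them. The same order held for 9 of 12 loop and distal tubule markers and 6 of 9 stromal markers. It held for 2 of 11 endothelial and 4 of 12 leukocyte markers. The part of any of these cells in the Dnajc12 values was not tested. Dnajc22, a membrane-bound J-protein, read 122, 211 and 314 in JG and 11.7, 14.6 and 13.0 in MSC (2.90 ± 0.35, adjusted p = 0.00374). Its MSC values lie under the added 16, so the log2 difference understates the change. A second Dnajc22 probe set, at 174, 1 and 18.1 in JG and 1 in every MSC sample, missed the threshold (adjusted p = 0.290 over all probe sets).

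Both remaining calls in class C were mitochondrial proteins. Dnajc15, an inner membrane protein that restrains respiratory complex I, read 914, 771 and 1197 in JG and 302, 408 and 349 in MSC (1.39 ± 0.27, adjusted p = 0.0190). Dnajc30, which acts on complex I assembly and the ATP synthase, read 643, 967 and 1084 in JG and 350.2, 365 and 388 in MSC (1.22 ± 0.27, adjusted p = 0.0314). In both cases all JG samples lay above all MSC samples by a clear margin. Proximal tubule cells are rich in mitochondria, and the summed proximal tubule markers given above were far higher in JG. Their part in these differences was not tested. Dnajc22 kept its call whichever sample was left out, with adjusted p up to 0.0263, but without the probe sets whose names end in s_at or x_at it was read by the second probe set and not called (0.279). A pseudocount of 1 ended the calls of Dnajc15 (0.0649) and Dnajc30 (0.0933), and a trended and robust prior that of Dnajc30 (0.0673). Without any 1 MSC sample Dnajc12, Dnajc15 and Dnajc30 lost theirs (0.0577 to 0.0693, 0.0636 to 0.0863 and 0.111 to 0.118). Dnajc12 and Dnajc30 also lost it without JG sample 3 (0.0519 and 0.0786), and Dnajc30 without JG sample 2 (0.0558).

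Several uncalled class C genes differed widely among the JG samples. Dnajc6 (auxilin), which uncoats clathrin vesicles with Hspa8, read 367, 27.4 and 128 in JG and 1.97, 4.68 and 3.84 in MSC (2.78 ± 0.75, adjusted p = 0.0544), and another of its probe sets was called higher (2.07, adjusted p = 0.0120 over all probe sets). Dnajc6 was itself called higher under 7 alternatives that keep all samples (adjusted p from 0.00226 to 0.0484) and without JG sample 1 or 2 (0.0392 and 0.00759). Dnajc9, a chaperone of new histones, read 599, 46.3 and 125 in JG and 623, 1384 and 1410 in MSC (-2.63 ± 0.85, adjusted p = 0.0887). JG sample 1 was the highest JG sample for Dnajc9 and for 8 of the 11 dividing-cell markers, and the lowest for 2 of them, while the summed markers were 763, 777 and 452 in JG. All 11 had every JG sample below every MSC sample, and JG sample 1 was the highest for 54.5% of all such genes. The part of dividing cells in the Dnajc9 values was not tested. Dnajc18 read 587, 13.3 and 16.2 in JG and 159, 251 and 235 in MSC, so that JG sample 1 exceeded every MSC sample and the other JG samples fell short of them all (-1.46 ± 1.16, adjusted p = 0.435). Dnajc11, part of the inner membrane scaffold of mitochondria, read 31.4, 108 and 600.2 in JG and 30.2, 22.6 and 16.2 in MSC (1.99 ± 0.89, adjusted p = 0.180), while its 3 other probe sets had differences from -0.75 to 0.21.

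The other class C genes lay nearer to 0. Dnajc4 came closest to a call (192, 242 and 315 in JG, 85.4, 89.2 and 142 in MSC, 1.13 ± 0.30, adjusted p = 0.0533), and it was called higher under quantile normalization (0.0340), a pseudocount of 64 (0.0494), the mean of all probe sets (0.0384) and array weights. Of the ER members, Dnajc3 (p58IPK), whose promoter element is printed above, read 1257, 1267 and 1365 in JG and 1885, 1233 and 1148 in MSC (-0.10 ± 0.27, adjusted p = 0.837). Dnajc10, a disulfide reductase of the ER, stood at -0.26, and Dnajc1 at 0.85, with overlapping groups. The ribosome-associated Dnajc2 (-0.24), its Hsp70 partner Hspa14 (-0.22), the spliceosomal Dnajc8 (-0.56) and the Hsp90-linked Dnajc7 (0.16) were not called either. The vesicle protein Dnajc5 stood at -0.75 and the endosomal Dnajc13 at 0.57. Dnajc14, Dnajc16, Dnajc17, Dnajc21, Dnajc24, Dnajc25, Dnajc27 and Dnajc28 had differences from -1.20 to 0.68 and were not called, and Dnajc5b and Dnajc5g stayed at or under 21.7 on all arrays.

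Ordered by place in the cell, the members gave different counts. Of 9 heat-induced cytosolic members, Hspa1a was called higher and Hspb1 lower, with a list median of 0.08. Of 10 ER members none was called by limma (1 had an unadjusted p under 0.05, downward), 9 had negative differences and the list median was -0.45. Of 7 measured mitochondrial members, Dnajc15 and Dnajc30 were called higher, none was called lower (0 with an unadjusted p under 0.05 downward), and the median was 0.68. These medians stand beside 0.07 for all genes, and the counts beside 7.7% of all genes called higher and 7.71% called lower. Whether the places differ from each other was not tested.

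**Figure D3:**
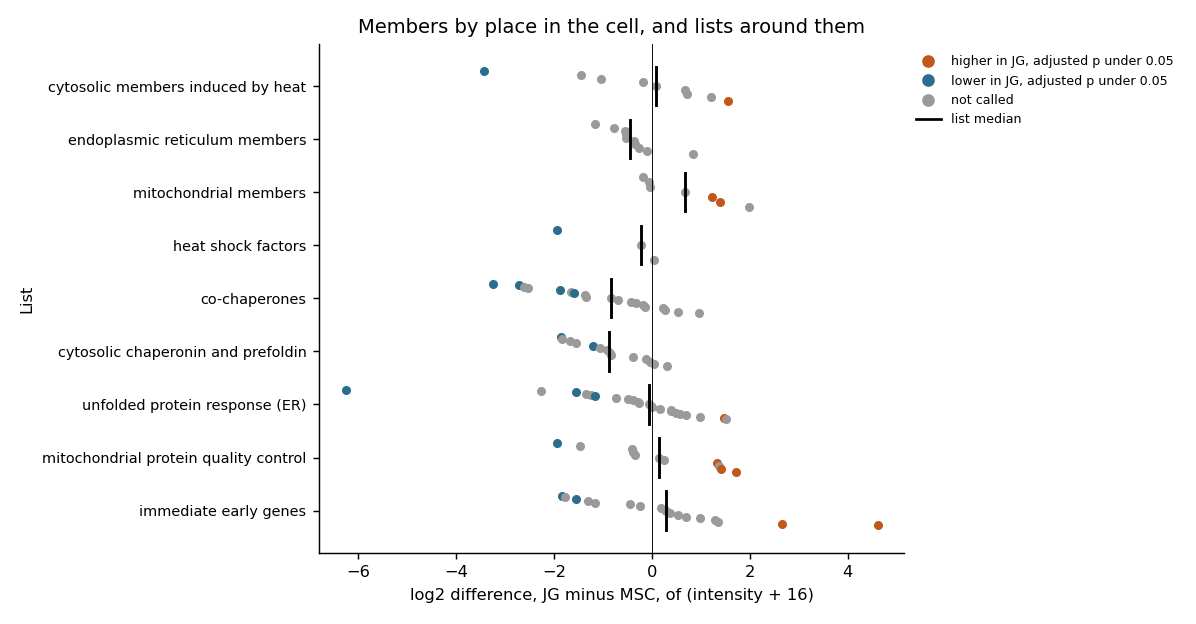
Log2 difference, JG minus MSC, of the intensity plus 16 (x axis) for the members by place in the cell and for the genes of 6 related lists (y axis). Each point is a gene, orange if called higher in JG, blue if called lower and grey if not called, and black bars are list medians. The co-chaperone and cytosolic chaperonin lists have medians of -0.84 and -0.88.

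The JG samples differed among themselves for many members. Over all genes JG samples 1 and 2 correlated at 0.797, and each of them with JG sample 3 at 0.882. Of the 17 members with every JG sample below every MSC sample, JG sample 1 was the highest JG sample in 14 (82.4%), where the share among all 3394 such genes was 54.5%. JG sample 2 was the lowest of the 3 in 12 of the 17 (70.6%, against 59.3% of all such genes). Over all 72 members JG sample 1 was the highest JG sample for 38 (52.8%, against 37.1% of all genes). JG sample 2 was the lowest JG sample for 40 (55.6%, against 40.8% of all genes). JG sample 1 lay within the range of the MSC samples for 19 members (26.4%, against 27.1% of all genes). The largest gaps between JG sample 1 and the mean of the other JG samples, on the log2 scale, were 4.43 for Hspb8, 4.29 for Dnajc18, 2.79 for Hspa12b, 2.76 for Dnajc21 and 2.71 for Dnajc9. In the other direction Dnajc11 stood at -2.54, Hspb7 at -2.32, Dnajc25 at -2.29 and Hspa1b at -1.95.

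The stromal marker sum was 23260 in JG sample 1, 11410 in JG sample 2 and 15100 in JG sample 3, against 28090 to 29930 in MSC. Of its 9 genes, 2 were called higher in JG and 3 lower. JG sample 1 was the highest JG sample for 6 of the 9 and the lowest for 3. This order of the JG sums was not particular to stromal markers. Proximal tubule sums were 52760, 39360 and 50620, loop and distal tubule sums 22800, 14620 and 19340, and sums over all genes 7517000, 5936000 and 7293000. Endothelial, leukocyte and smooth muscle and mural cell sums were lowest in JG sample 1, and renin cell and dividing-cell sums highest in JG sample 2. Whether stromal cells give the differences between JG samples was not tested. The number of members called changed with the sample left out. Without JG sample 1 it was 12 higher and 17 lower, without JG sample 2 it was 6 and 5, and without JG sample 3 it was 3 and 3. Without MSC sample 1, 2 or 3 it was 1 higher in each case and 1, 0 and 0 lower by limma. In those fits 8 or 9 members had an unadjusted p under 0.05 upward and 11, 9 and 7 downward. The counts over all 18193 genes moved too. They were 2587 higher and 2714 lower without JG sample 1, 1537 and 1298 without JG sample 2, and 980 and 951 without JG sample 3. Without 1 MSC sample they were 710 to 730 higher and 419 to 525 lower. Without JG sample 1 the calls, made on the brightest probe set of each gene, took in Hspa1b, Dnajc1 and Dnajc11 as higher. They took in Dnajb1, Dnaja1, Dnaja2, Hspa4, Hsp90b1 and Hspb8 as lower, and array weights called these 9 as well. Over all samples another probe set of Dnajc1 had a difference of -2.13, another of Hsp90b1 -0.31 and another of Dnajb1 0.34. Other probe sets of Hspb8 (-3.58 and -2.53) and Hspa1b (1.29 and 0.87) went the same way as the brightest.

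**Figure D4:**
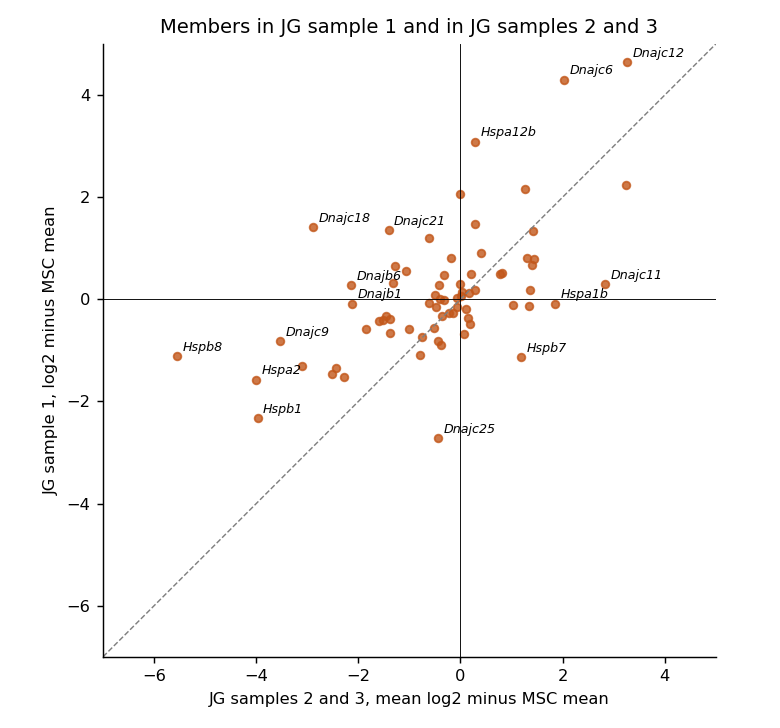
For each of the 72 members, log2 of the intensity plus 16 in JG sample 1 minus the MSC mean (y axis), against the mean of JG samples 2 and 3 minus the MSC mean (x axis). The dashed line marks equal values. Hspb8, Dnajc18 and Dnajc9 lie above the line on the left, and Dnajc11, Hspb7 and Dnajc25 lie below it.

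Other probe sets of the same gene did not always give the same answer. The 72 members were read by 174 probe sets, and 46 members had more than 1. No member had probe sets called in opposite directions. Of the 5 called members with another probe set, 3 had one called the same way (Hspb1, Dnajb4 and Dnajb5) and 2 had none (Dnajc22 and Hspb11). Another probe set was called for 7 members whose brightest was not, namely Dnajc6 (higher) and Hspb8, Dnajb6, Dnajc10, Dnajc8, Hspa14 and Hspa4l (lower). Dnajc10 was read at 951, 466 and 1088 in JG and 1036, 966 and 835 in MSC by its brightest probe set. Another gave 245, 90.9 and 70.6 in JG and 579, 612 and 524 in MSC (-2.13, adjusted p = 0.0281 over all probe sets). For Hspa8 3 probe sets read between 5499 and 9631 on every array with overlapping groups. The fourth read 153, 1566 and 856 in JG and 144, 45.9 and 133 in MSC, which did not pass the test (2.44, adjusted p = 0.121 over all probe sets). Dnaja1 stood at -1.05 by its brightest probe set and at 0.66 and 0.11 by the others. Dnajc1 stood at 0.85 by its brightest probe set. Another of its probe sets read 497, 52.5 and 222 in JG and 893, 696 and 1072 in MSC, without overlap or call (-2.13, adjusted p = 0.106 over all probe sets). The signals of different probe sets do not compare as amounts of RNA, and which transcripts each one reads was not examined.

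**Figure D5:**
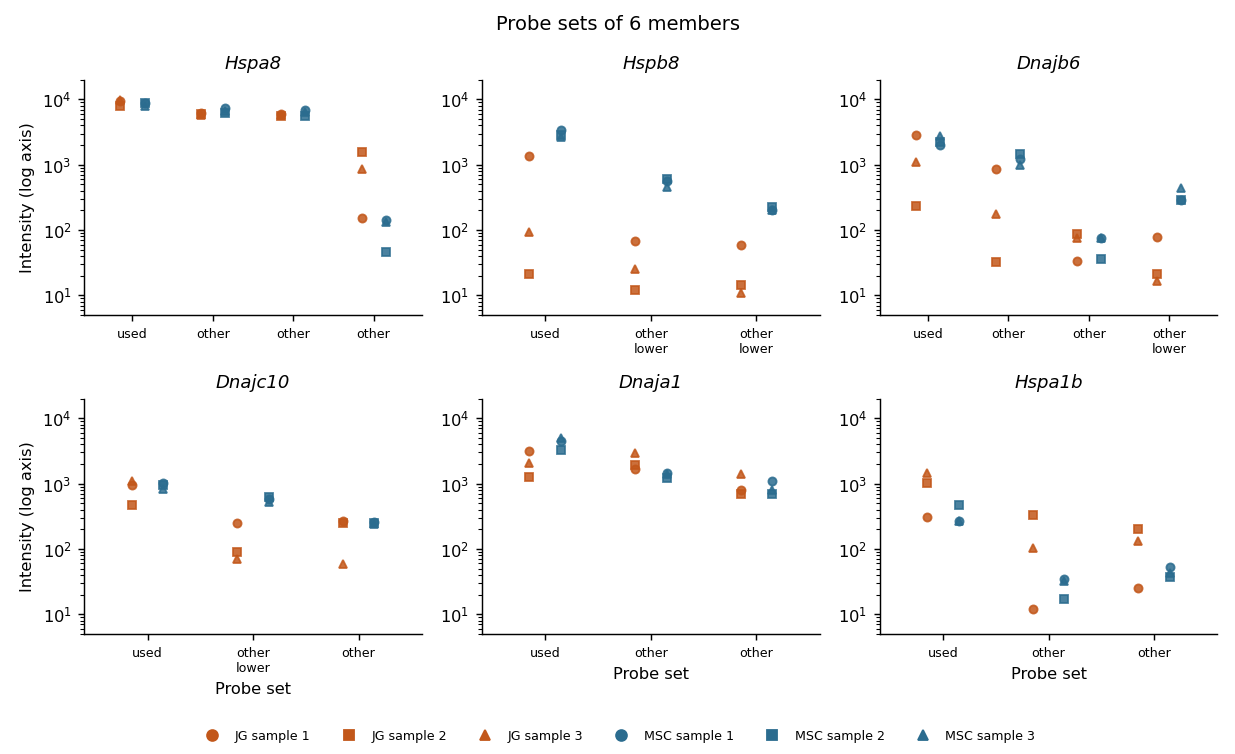
Intensity (y axis, log scale) by probe set (x axis) for 6 members, with JG samples in orange left of MSC samples in blue and marker shapes for the sample number. The leftmost probe set of each gene is the one used in the comparison, and a call over all probe sets is written under it. The groups separate for all 3 probe sets of Hspb8 and overlap for 3 of the 4 probe sets of Hspa8.

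The genes around the chaperones were counted from lists chosen by function. The counts stand beside 7.7% of all genes called higher and 7.71% called lower. Hsf1, the gene of heat shock factor 1, was listed but not among the genes measured, which were Hsf2, Hsf4 and Hsf5. Of these 3, Hsf2 was called lower (14.0, 11.7 and 16.4 in JG, 124, 105 and 75.1 in MSC, -1.95 ± 0.25, adjusted p = 0.00494). The JG values lie near the added 16, and all of them were under the lowest MSC sample. Of 19 co-chaperones of Hsp70 and Hsp90, 4 were called lower, with a list median of -0.84, and none higher by limma (0 with an unadjusted p under 0.05 upward). Bag2, an exchange factor that inhibits the ubiquitin ligase Stub1, read 12.4, 4.33 and 3.49 in JG and 178, 186 and 225 in MSC (-3.24 ± 0.26, adjusted p = 0.000711). Bag5, of the same family, was called at -2.72 and Stip1 (Hop), which joins Hsp70 to Hsp90, at -1.87. The fourth was Ahsa2 (-1.59), a relative of the Hsp90 activator Ahsa1. Of 14 subunits of the cytosolic chaperonin and prefoldin, Cct5 (-1.20) and Pfdn4 (-1.85) were called lower and none higher (0 with an unadjusted p under 0.05 upward), with a median of -0.88. Every JG sample lay below every MSC sample for 8 of the 14, and for 18.7% of all genes.

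Stress pathway genes of the ER and of mitochondria went both ways. Of 23 genes of the unfolded protein response, Trib3 (-6.26), Ddit3 (CHOP, -1.56) and Manf (-1.17) were called lower and Sil1, the exchange factor of Hspa5, higher (1.48 ± 0.38, adjusted p = 0.0473). Sil1 read 1028, 2318 and 1840 in JG and 470, 527 and 772 in MSC. The list median was -0.06. Of 11 genes of mitochondrial protein quality control, Clpx (1.73), the mitochondrial Hsp90 Trap1 (1.42) and Clpp (1.34) were called higher and the protease Lonp1 lower (-1.94). Trap1 read 1038, 641 and 1264 in JG and 371, 307 and 354 in MSC. Clpx and Clpp form 1 protease, and both had all JG samples above all MSC samples.

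Immediate early genes, which cells switch on within minutes of a stimulus and also during tissue dissociation, had 2 of 18 called higher and 2 lower in JG. Fosb read 220, 1743 and 2000 in JG and 19.4, 17.7 and 31.7 in MSC (4.62 ± 0.83, adjusted p = 0.0153), and Atf3 read 145, 430 and 435 in JG and 22.1, 52.2 and 33.1 in MSC (2.66 ± 0.48, adjusted p = 0.0155). JG sample 1 was the lowest JG sample for both, as for Hspa1b, and the highest for Hspa1a. It was the lowest for 1631 of the 3680 genes with every JG sample above every MSC sample. Over the 18 immediate early genes it was the lowest for 9 and the highest for 5. Over all 18193 genes it was the lowest for 6657 and the highest for 6755. Fosl1 (-1.84) and Ier3 (-1.56) were called lower, and Fos, Jun and Egr1 were not called (1.30, 0.99 and 0.27). The part of cell preparation in the Hspa1a and Hspa1b values was not tested. The counts over the 6 related lists were 6 genes higher and 13 lower. Without 1 sample they ran from 1 (MSC sample 1) to 10 (JG sample 1) higher and from 3 (MSC sample 3) to 25 (JG sample 1) lower.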

How the data were processed

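Per the labels' protocols, biotinylated cRNA was made from 100 ng of total RNA by the Affymetrix protocol. The deposited table gives a linear intensity for each of 45037 probe sets on 6 arrays. The authors' summarisation, background correction and scaling are not given in the sources used here. It holds no detection calls, and between 34.4% and 41.5% of the values of an array lay under 16. The platform annotation paired 34945 probe sets with 1 gene, 932 with several and 9160 with none in that annotation. The number of arrays limits the precision.

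Here each gene was represented by its probe set with the highest mean intensity. Values were not normalized further or filtered, and their log2 after adding 16 was fitted over 18193 genes with limma 3.58.1 (R 4.3.3), JG minus MSC, without covariates. The pseudocount of 16 understates changes of dim genes. The script was tested on simulated data with 200 of 18193 genes changed. It recovered 0% of log2 changes of 1, 33.2% of changes of 2 and 95.7% of changes of 4. Mean shares of false calls were 20%, 4.43% and 5.23%. More genes than 200 were called in the data, so these shares do not carry over directly. A member without a call may still differ. Values of single probe sets come from a fit over all probe sets paired with 1 gene. The rule for named genes took every called member, the 8 members with the brightest probe sets, members induced by heat or of the ER or mitochondria, and up to 3 called genes a list. Other genes given by sample, such as Hspb8, Dnajc9, Dnajc18 and Ahsa2, were chosen after their values were seen. The members, lists and rule were chosen with earlier results of these data known. Alternatives numbered 18, and figures were drawn with matplotlib 3.10.9.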

Additional observations from a re-analysis of the deposited data

How the results depend on the processing

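The median difference of the members stayed between -0.346 and -0.0812 under all 18 alternatives. Quantile normalization, median centring, a pseudocount of 64, filters on dim genes, a trended and robust prior and probe sets with suffix s or x left out kept the member counts within 1.5 times, as did a pseudocount of 1. Taking the brightest probe set by mean log2, chosen after seeing the data, gave the same 12 calls. Exceptions were the mean of all probe sets, with 10 members lower in place of 6, and a pseudocount of 1 for the related lists, with 3 genes higher and 8 lower in place of 6 and 13. Array weights gave 6429 genes called (3351 higher and 3078 lower) in place of 2803 (1400 and 1403), 13 members higher and 18 lower, and 11 and 27 list genes. With the replicate number as a block the counts were 1594 genes (891 and 703), 2 members each way and 3 and 4 list genes. Numbers did not pair the samples: the correlations of deviations of samples with the same number were -0.199, -0.00794 and -0.0108, and no JG sample matched its own number best. With 1 sample left out, all called genes ran from 1149 to 5301 (710 to 2587 higher, 419 to 2714 lower), members from 1 to 12 higher and 0 to 17 lower, and list genes from 1 to 10 and 3 to 25. Such fits also have fewer residual degrees of freedom. The cause of the other changes was not tested. With no detection calls, low intensities limit what can be said of dim genes.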

Other observations

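Dnajc19, a J-protein of the mitochondrial import motor, was read only by probe sets that also name its pseudogene, and these values enter no comparison. The brightest of the 3 read 2323, 1929 and 1446 in JG and 543, 969 and 1101 in MSC. Another read 571, 181 and 547 in JG and 407, 343 and 355 in MSC, and the remaining 1 stayed at or under 29.0 on all arrays. The first therefore had every JG sample above every MSC sample, and the second had overlapping groups.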
